A study of Oryza sativa with 8 samples.

Results

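The 10 rice loci described here control how strongly a rice plant branches into tillers. They are the strigolactone synthesis genes D27, D17 and D10, the strigolactone signalling genes D14, D3 and D53, and the regulators of bud formation and outgrowth IPA1, TB1, MOC1 and NGR5. They were chosen by locus identifier from knowledge of their function and were looked up in the 4 lists of differentially methylated genes (DMGs) of the study. Of the 10 loci, 2 were listed in at least 1 comparison, D10 and IPA1. Over all the genome 19182 loci were, and 29.3% of 61898 possible locus numbers, and 2 of 10 is read as no result beside that share. The other 8 had no listed differentially methylated region (DMR) in any of the 4 comparisons.

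Whole-genome bisulfite sequencing was used to measure cytosine methylation in leaf DNA of mature field-grown plants, which the labels give as shoot. WYG7 is the wild type of the japonica cultivar Wuyungeng 7. Ox1 is 1 line in that background, in which OsNAR2.1, the partner protein of nitrate transporters, is overexpressed from the promoter of OsNAR2.1 itself. Both lines were grown from HN seeds, whose parents had received nitrogen fertiliser, or from LN seeds, whose parents had received none. Each was planted in the HN field, which received 300 kg N/ha, or in the NN field, which received 0 kg N/ha. This gave 8 libraries, 1 per condition. Every library entered 1 of 4 comparisons of an LN with an HN library, namely WYG7 in the HN field, Ox1 in the HN field, WYG7 in the NN field and Ox1 in the NN field. A hyper-DMR is read here as a region with higher methylation in the LN library and a hypo-DMR as one with lower methylation there. The lists do not name the library taken as reference, so this direction is a reading. No condition was repeated, so no difference below has a replicate check, and no p-value is given. The lists hold positions and directions only, so the exact size of each methylation difference and the coverage behind it are unknown beyond the minimum of each that the DMR calling required. The number of plants in a library is not given in the sources used here, and DNA of leaves, not of axillary buds, was measured.

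Strigolactones are carotenoid-derived hormones that hold axillary buds dormant, and rice mutants that cannot make or sense them are dwarfed with many tillers. In rice, the isomerase D27 and the cleavage enzymes D17 and D10 act in turn on carotene to give the strigolactone precursor carlactone. The receptor D14 and the F-box protein D3 then direct the repressor D53 to degradation, which frees transcription factors such as IPA1 to act. Nitrogen supply is known to raise tiller number in rice, and NGR5 and the strigolactone genes are known to respond to it.

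Among the 10 loci, WYG7 in the HN field had 2 listed, Ox1 in the HN field 0, WYG7 in the NN field 2 and Ox1 in the NN field 1. Over the genome, the listed loci made up 16.4%, 16.1%, 16.7% and 11.9% of 61898 possible locus numbers in the same order. These numbers run in steps of 10 along each chromosome, 94.5% of listed loci have such a number, and unused numbers make the shares low. A count of 0 to 2 among 10 lies near these shares and is not a result about the 10 loci. Taken over the 19182 loci listed in any comparison, the shares were 56.0%, 54.9%, 57.0% and 40.9%, a base to which only D10 and IPA1 belong. The listed loci numbered 10740, 10526, 10941 and 7837.

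Of the listed members, IPA1 differed in direction between comparisons. D10 had a hypo-DMR in both comparisons of WYG7 and also a hyper-DMR in the NN field. For WYG7 in the HN field, 0 members had a hyper-DMR and 2 had a hypo-DMR, where 29.6% and 37.0% of the 19182 loci had one. All shares in this paragraph are over loci listed in any comparison, a base to which only D10 and IPA1 belong. The member counts have another base and no difference is read from setting them beside these shares. For Ox1 in the HN field neither direction occurred among the members, and the shares of loci were 46.8% with a hyper-DMR and 16.9% with a hypo-DMR. For WYG7 in the NN field, 2 members had a hyper-DMR and 1 had a hypo-DMR, and the shares of loci were 43.5% and 24.4%. For Ox1 in the NN field, 1 member had a hyper-DMR and 0 had a hypo-DMR, and the shares were 17.2% and 30.8%. In all, 7 DMRs lay at the members, 4 of them hyper and 3 hypo.

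**Figure D1:**
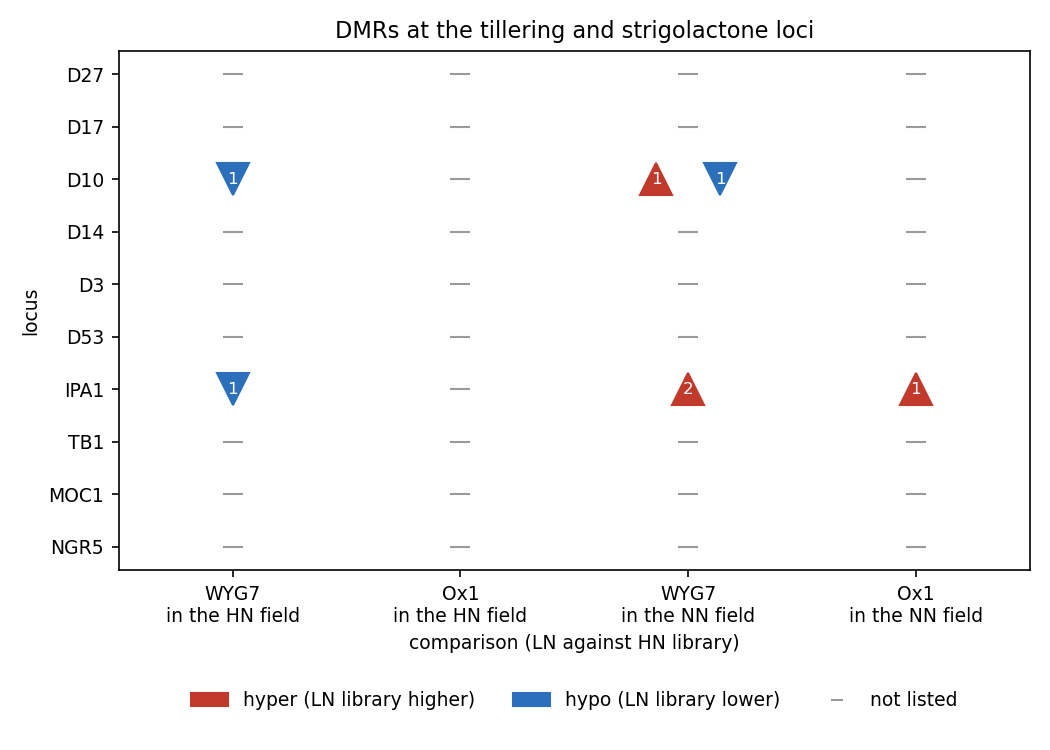
Each line is 1 of the 10 loci and each column 1 of the 4 comparisons of an LN with an HN library, with upward red triangles for hyper-DMRs, downward blue triangles for hypo-DMRs, the number of DMRs written in the triangle and a dash where the locus was not listed. Triangles stand only at D10, where WYG7 had 1 hypo-DMR in the HN field and 1 DMR of each direction in the NN field, and at IPA1, where WYG7 had 1 hypo-DMR in the HN field and both lines had hyper-DMRs in the NN field.

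D10 (LOC_Os01g54270) encodes carotenoid cleavage dioxygenase 8, which makes carlactone. Its listed interval, read as the gene body with 1 kb upstream since no listed interval was shorter than 1154 bp, ran on chromosome 1 from 31220321 to 31229566 in IRGSP-1.0, a length of 9246 bp. In WYG7 in the HN field it held 1 hypo-DMR of 223 bp at 31224007 to 31224229. In WYG7 in the NN field it held a hypo-DMR of 567 bp at 31223632 to 31224198 and a hyper-DMR of 320 bp at 31224366 to 31224685. In Ox1 it was listed in neither field.

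The hypo-DMRs of WYG7 in the 2 fields shared 192 bp. By the reading of direction used here, the same stretch of D10 had lower methylation in the LN library in both fields. The hyper-DMR of the NN field started after a gap of 167 bp. The 3 DMRs spanned 1054 bp. They began 3311 bp after the start of the interval and stopped 4881 bp before its end, so that they lay inside the gene body whichever strand carries the gene. Whether they fell in an exon or an intron could not be read, since no exon positions of this build were used here.

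In length, the hypo-DMR of the NN field was above most of its list. Of the DMRs of WYG7 in the NN field, 8.79% were at least as long as its 567 bp, and the median was 237 bp. The hyper-DMR beside it was exceeded or matched by 31.2% of that list. The hypo-DMR of the HN field, at 223 bp, was close to the list's median of 229 bp, with 52.1% at least as long.

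D10 was thus listed for WYG7 in both fields and for Ox1 in neither, as were 1077 loci including D10, 5.61% of all listed loci. Listing in any 2 of the 4 comparisons occurred at 26.4% of listed loci. Whether the lines differ was not tested, and a DMR of Ox1 fell just short of being listed at D10. In Ox1 in the HN field, a hypo-DMR of 389 bp at 31219962 to 31220350 reached 30 bp into the D10 interval. A gene was listed only from an overlap of 52 bp, and this DMR was assigned to the preceding locus LOC_Os01g54260, with which it shared 224 bp. The smallest overlap of the DMRs listed at D10 was 223 bp, so no other value came near the limit. Both directions in WYG7 in the NN field, as at D10, occurred at 2082 loci, 19.0% of those listed there.

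The DMRs around D10 were more frequent before than after the interval. Before and after mean lower and higher positions on the chromosome, here and for IPA1, since no strand is given. Within 20 kb of the interval there were 11 DMRs for WYG7 in the HN field, of which 7 lay before, 1 at and 3 after the interval. For Ox1 in the HN field there were 8, with 5 before, 1 at the edge and 2 after. For WYG7 in the NN field there were 9, with 5 before, 2 at and 2 after. For Ox1 in the NN field there were 5, with 4 before, 0 at and 1 after. Most of those before the interval fell in 2 listed loci, LOC_Os01g54250 at 31212517 to 31216674 and LOC_Os01g54260 at 31217674 to 31220185.

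In this cluster, which lay 0.96 to 7.78 kb before the D10 interval, the direction changed between comparisons at some positions and not at others. A hyper-DMR of WYG7 in the HN field at 31215010 to 31215280 lay wholly, over 271 bp, in a hypo-DMR of WYG7 in the NN field at 31214514 to 31215281. A hypo-DMR of Ox1 in the NN field at 31215123 to 31215512 shared 158 bp with that hyper-DMR. Nearer to D10, hyper-DMRs of WYG7 in the HN field at 31218564 to 31218841 and 31218893 to 31219052 shared 278 and 149 bp with a hyper-DMR of Ox1 in the NN field at 31218551 to 31219041. In the gene body, hypo-DMRs of the 2 WYG7 comparisons overlapped and WYG7 in the NN field also had a hyper-DMR. Ox1 had no DMR at this place.

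**Figure D2:**
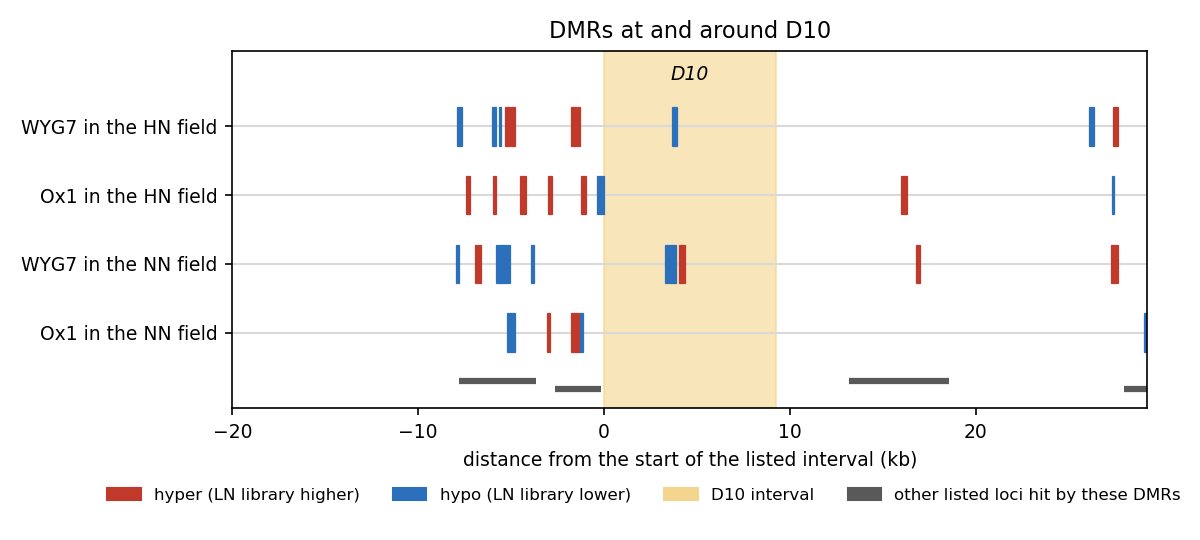
The horizontal axis is the distance in kb from the start of the D10 interval, each line is 1 comparison of an LN with an HN library, red bars are hyper-DMRs, blue bars hypo-DMRs, the shaded band is the D10 interval and grey bars are other listed loci overlapped by these DMRs. DMRs inside the band occur only in WYG7 and lie 3311 to 4364 bp from its start, the hypo-DMR of Ox1 in the HN field touches its edge by 30 bp, and most other DMRs lie before the band.

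D27 (LOC_Os11g37650) encodes the iron-containing isomerase that converts beta-carotene at the first step of the pathway. It was not listed in any comparison. For a locus that was not listed, the tables give no position, so the stretch between the nearest loci listed in any comparison on either side of its number was examined and is called its gap. Locus numbers rose along the chromosome in 99.5% of 19170 neighbouring listed pairs. Where within a gap a locus lies, and on which strand, is not known here. By the listing rule, a gene was taken in from 52 bp of overlap. If the locus was in the annotation used, a DMR in its gap was outside its interval or overlapped it by at most 51 bp. Whether an unlisted locus was in that annotation is not known here.

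The gap of D27 was 75.3 kb long, on chromosome 11 from 22213648 to 22288993, between LOC_Os11g37630 and LOC_Os11g37710. It held 1 DMR for WYG7 in the HN field, 0 for Ox1 in the HN field, 2 for WYG7 in the NN field, and Ox1 in the NN field had 1. All 4 were hyper-DMRs. Those of WYG7 in the 2 fields formed 1 place of 428 bp at 22283684 to 22284111, and that of Ox1 lay apart from them at 22238093 to 22238271.

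D17 (LOC_Os04g46470) encodes carotenoid cleavage dioxygenase 7, which acts between D27 and D10, and was also not listed. Its gap was 50.0 kb long, on chromosome 4 from 27531290 to 27581329, and held 3 DMRs for WYG7 in the HN field, 2 for Ox1 in the NN field and 0 in the other comparisons. At 27537190 to 27537342 a hyper-DMR of WYG7 in the HN field met a hypo-DMR of Ox1 in the NN field. At 27580973 to 27581210 both had a hypo-DMR. Beside it, at 27581218 to 27581333, WYG7 in the HN field had a hyper-DMR that reached just past the end of the gap. Of the 3 synthesis genes, D10 alone therefore had a DMR listed in its body or promoter, in leaves. Over the genome, 29.3% of 61898 possible locus numbers were listed in any comparison. Beside that share, nothing particular to the synthesis genes is read from this count.

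The receptor D14 (LOC_Os03g10620), a hydrolase that binds and cleaves strigolactone, was not listed. Its gap, between LOC_Os03g10430 and LOC_Os03g10630, was 120 kb long on chromosome 3 from 5311110 to 5431105, with 19 locus numbers in it, and held 6 DMRs. Of these, 5 lay near its upper end. At 5427337 to 5428001 there were 3 of them, a hypo-DMR of WYG7 in the HN field and hyper-DMRs of Ox1 in the HN field and WYG7 in the NN field. The hypo-DMR began at 5427857, after the end of the hyper-DMR of WYG7 at 5427812, and overlapped that of Ox1 only. Ox1 in the NN field had a pair of hypo-DMRs close by, at 5428372 to 5428474 and 5428481 to 5428614. The number of D14 is the last before the upper listed locus, so this end is the one nearest to it by number.

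D3 (LOC_Os06g06050) encodes the F-box protein that works with D14 in the ubiquitin ligase complex. It was not listed, and its gap of 30.0 kb on chromosome 6 from 2755800 to 2785773 held 0 DMRs in every comparison. It was the only one of the 8 unlisted members whose gap was empty. The wider surroundings were not empty, with 11, 11, 15 and 10 DMRs in 200 kb around the middle of the gap, for WYG7 and Ox1 in the HN field and WYG7 and Ox1 in the NN field in that order.

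D53 (LOC_Os11g01330) encodes the repressor that D14 and D3 remove when strigolactone is present, and was not listed. In its gap of 49.8 kb on chromosome 11 from 155483 to 205305 there was 1 place of 250 bp, at 186395 to 186644, with a hyper-DMR in Ox1 in the HN field and another in WYG7 in the NN field. Its close homologue D53-LIKE (LOC_Os12g01360) was not listed either. The gap of D53-LIKE, 81.7 kb on chromosome 12 from 185911 to 267656, held 2 hypo-DMRs for WYG7 in the HN field, 1 hypo-DMR for Ox1 in the NN field and 0 in the others. The 2 genes lie in the near-identical ends of chromosomes 11 and 12, where short reads can fail to align to 1 place, and the part of this in the absence of listed DMRs was not tested.

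IPA1 (LOC_Os08g39890) encodes the SPL transcription factor that sets plant architecture and acts downstream of D53. It was the member listed most often, in 3 of the 4 comparisons. Of all listed loci, 18.2% were likewise listed in 3 comparisons and 15.3% in all 4. Its interval ran on chromosome 8 from 25274449 to 25279696, a length of 5248 bp. In WYG7 in the HN field it held 1 hypo-DMR of 272 bp at 25279354 to 25279625. In WYG7 in the NN field it held 2 hyper-DMRs, of 233 bp at 25279187 to 25279419 and of 180 bp at 25279416 to 25279595, whose ends shared 4 bp. In Ox1 in the NN field it held 1 hyper-DMR of 218 bp at 25279074 to 25279291. Ox1 in the HN field had none.

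All 4 DMRs of IPA1 lay within 552 bp at 1 end of the interval, the first starting 622 bp and the last ending 71 bp before it. Regions of 3 comparisons thus lay close together, though those of WYG7 in the HN field and Ox1 in the NN field did not overlap each other. This end is within the outer 1 kb of the interval, which is either the promoter or the end of the gene body, and the tables give no strand to tell them apart. None of these DMRs was long for its list. At least as long were 39.0% of DMRs of WYG7 in the HN field for the 272 bp, 51.3% and 69.5% of those of WYG7 in the NN field for the 233 and 180 bp, and 52.6% of those of Ox1 in the NN field for the 218 bp, where the median was 225 bp.

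In WYG7 the direction at IPA1 was opposite in the 2 fields. The hypo-DMR of the HN field shared 66 and 180 bp with the hyper-DMRs of the NN field, 242 bp in all. In the NN field both lines were alike in direction, and the hyper-DMR of Ox1 shared 105 bp with that of WYG7. Opposite directions were common in WYG7. Of 3526 loci with a single direction in each field, 1940 or 55.0% had opposite ones, and 1482 or 42.0% were hypo in the HN field and hyper in the NN field, as IPA1 was. Listing in all comparisons but Ox1 in the HN field occurred at 767 loci, 4.0% of the 19182.

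Around IPA1, DMRs were more frequent after than before the interval. Within 20 kb there were 6 DMRs for WYG7 in the HN field, with 2 before, 1 at and 3 after. For Ox1 in the HN field there were 6, all of them after. For WYG7 in the NN field there were 9, with 2 before, 2 at and 5 after, and for Ox1 in the NN field there were 4, with 0 before, 1 at and 3 after. The nearest DMR of Ox1 in the HN field, a hypo-DMR at 25287726 to 25288024, began 8.03 kb after the end of the interval.

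At 17.5 kb after IPA1 a stretch of 196 bp, at 25297155 to 25297350, lay in a hyper-DMR in all 4 comparisons. These were 25297123 to 25297350 for WYG7 in the HN field, 25296853 to 25297354 for Ox1 in the HN field, 25297086 to 25297359 for WYG7 in the NN field and 25297155 to 25297363 for Ox1 in the NN field. The stretch lay in no listed locus. Over the genome, 1642 stretches lay in a DMR of all 4 lists, and 110 stretches lay in a hyper-DMR of all 4. Between this stretch and IPA1, a hyper-DMR of WYG7 in the HN field at 25287139 to 25287342 lay wholly, over 204 bp, in a hypo-DMR of Ox1 in the NN field at 25287025 to 25287351.

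**Figure D3:**
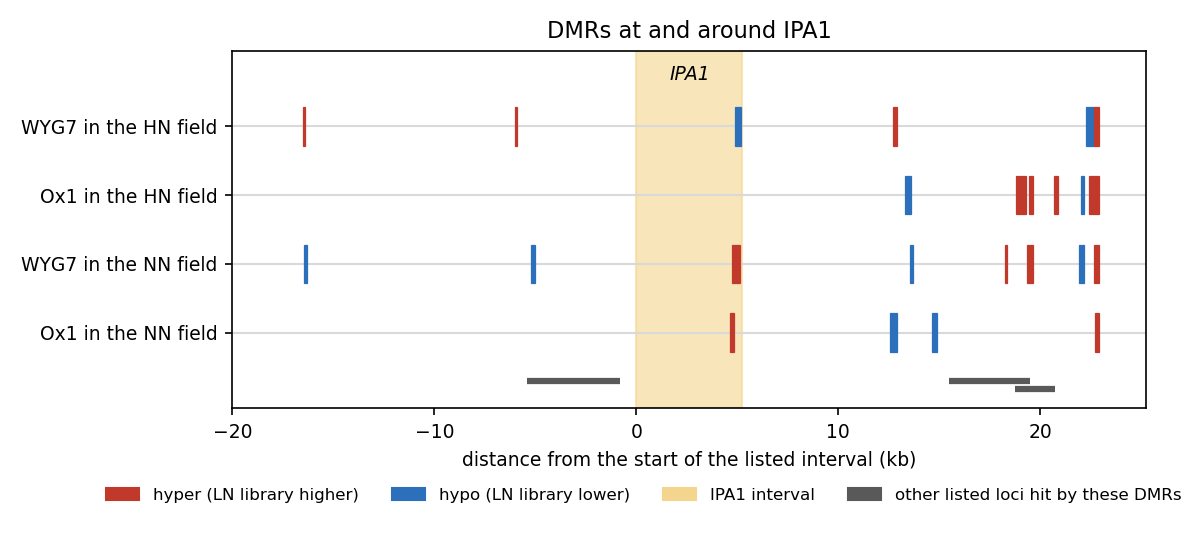
The horizontal axis is the distance in kb from the start of the IPA1 interval, each line is 1 comparison of an LN with an HN library, red bars are hyper-DMRs, blue bars hypo-DMRs, the shaded band is the IPA1 interval and grey bars are other listed loci overlapped by these DMRs. The DMRs inside the band stack at its right end, hypo in WYG7 in the HN field and hyper in both lines in the NN field, and at the far right a hyper-DMR of each comparison covers the same 196 bp.

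TB1 (LOC_Os03g49880), also known as FINE CULM 1, encodes a TCP transcription factor that restrains bud outgrowth. It was not listed, and its gap was the longest, at 159 kb on chromosome 3 from 28285834 to 28445058 with 22 locus numbers, and held the most DMRs. There were 2 for WYG7 in the HN field, 3 for Ox1 in the HN field, 4 for WYG7 in the NN field, and Ox1 in the NN field had 2. In all, 5 were hyper and 6 hypo. TB1 has the last number before the upper listed locus, LOC_Os03g49890.

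Overlapping DMRs of all 4 comparisons, joined into a place of 326 bp, lay in the gap of TB1 at 28343879 to 28344204. The stretch common to all 4 was only 28344015 to 28344040. It was hypo in WYG7 in the HN field, hyper in Ox1 in the HN field, hyper in WYG7 in the NN field and hypo in Ox1 in the NN field. Another place of 474 bp, at 28420595 to 28421068, had the same directions in the first 3 comparisons and no DMR in Ox1 in the NN field. These are also the directions of the joined place in the gap of D14. In each of these comparisons they were the more frequent direction of the whole list, whose hyper shares were 45.9% of 28880 DMRs, 75.4% of 25546, 64.5% of 26288 and 33.7% of 19765, and nothing particular to these loci is read from them.

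MOC1 (LOC_Os06g40780) encodes a GRAS protein needed to form axillary buds, and was not listed. Its gap of 111 kb on chromosome 6 from 24245380 to 24356538, with 15 locus numbers, held 4 DMRs at 4 places, each in 1 comparison. Ox1 in the HN field had hyper-DMRs at 24255395 to 24255569 and at 24355575 to 24355725, WYG7 in the NN field had 1 at 24346422 to 24346855, and Ox1 in the NN field had a hypo-DMR at 24328130 to 24328287. WYG7 in the HN field had none.

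NGR5 (LOC_Os05g32270) encodes an AP2-type transcription factor through which nitrogen supply raises tiller number. It had the shortest gap, 10.8 kb on chromosome 5 from 18809137 to 18819900, since both neighbouring locus numbers were listed and 1 number, its own, lay between them. In it there was 1 DMR, a hypo-DMR of Ox1 in the HN field at 18809403 to 18809608, which began 266 bp after the interval of LOC_Os05g32260.

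Taken over the 8 gaps, which covered 606 kb, there were 33 DMRs, 18 hyper and 15 hypo. For WYG7 in the HN field 3 were hyper and 5 hypo, Ox1 in the HN field had 7 and 1, WYG7 in the NN field had 7 and 2, and Ox1 in the NN field had 1 and 7. Where DMRs of the same gap overlapped they were joined, which left 21 places. Of these, 14 had a DMR in 1 comparison, 4 in 2, 2 in 3 and 1 in all 4. Most places in the gaps of the unlisted members were thus seen in a single comparison of single libraries. The hyper shares of the whole lists were 45.9%, 75.4%, 64.5% and 33.7% in the order above. No share of such places over the genome was computed. A gap is by definition a stretch without a listed gene, and nothing particular to these loci is read from the counts.

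**Figure D4:**
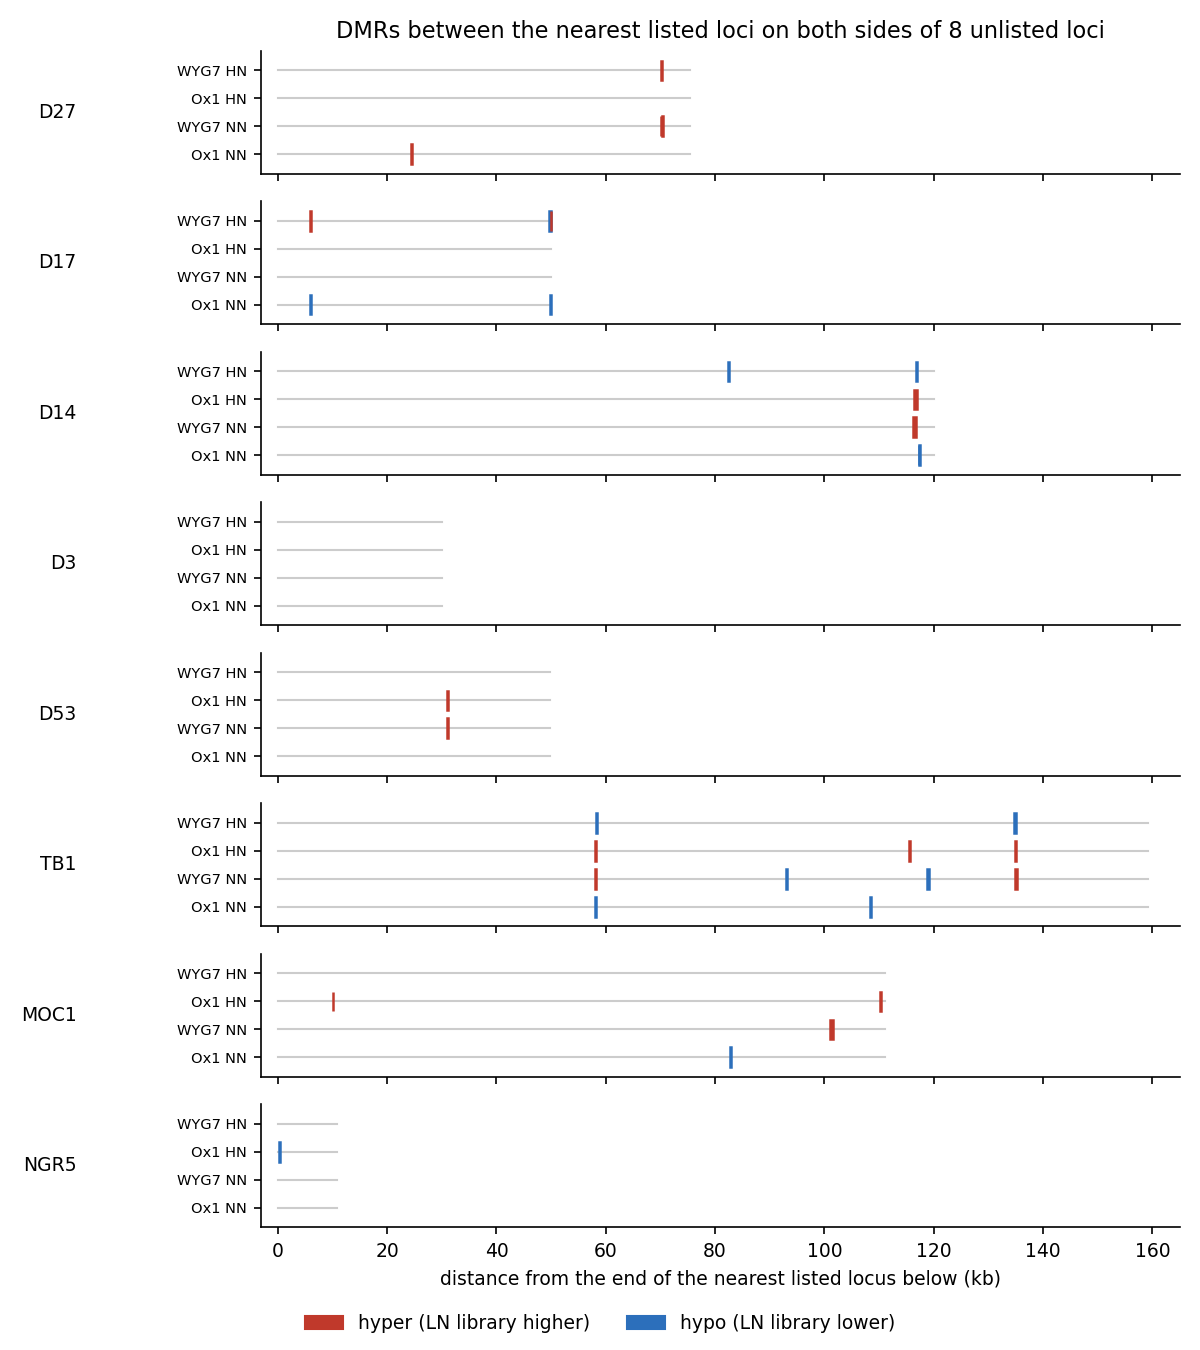
For each of the 8 unlisted loci, the horizontal axis is the distance in kb from the end of the nearest listed locus below it, the 4 lines are the comparisons of an LN with an HN library over the length of the gap, and red and blue bars, drawn no thinner than a visible minimum, are hyper-DMRs and hypo-DMRs. The gap of D3 is empty, the gap of TB1 has a place with bars in all 4 comparisons, and the gap of D27 holds hyper-DMRs only.

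The density of DMRs around the members was compared with that of the genome. In windows of 200 kb centred on the interval of D10 and IPA1 or on the middle of each gap, the median number of DMRs over the 10 members was 8.5 for WYG7 in the HN field, 9 for Ox1 in the HN field, 9 for WYG7 in the NN field, and Ox1 in the NN field had 5.5. Over 1860 windows of this length along the 12 chromosomes the medians were 12, 13, 13 and 9. The members above the median of all windows numbered 3, 3, 4 and 4, and those below it 6, 7, 6 and 6. The windows of the unlisted loci were centred on stretches without listed genes, and the part of this placement in the low counts was not tested.

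Summed over the 4 comparisons, D10, IPA1 and D17 had the most DMRs around them, 66, 59 and 57. D10 had 24, 17, 14 and 11 DMRs in the 4 comparisons in the order above, IPA1 had 16, 16, 17 and 10, and D17 had 21, 16, 10 and 10. In WYG7 in the NN field D27 and D3, with 16 and 15, were above D10 and D17. The windows of MOC1, D14, TB1 and D53 were sparse, and MOC1 had 2, 5, 4 and 4. D27 differed between the lines. For WYG7 its window held 12 DMRs in the field with nitrogen (HN) and 16 without it (NN), but 1 and 2 for Ox1, where the lower quartiles of all windows were 8.0 and 5.0. This difference between single libraries was not tested. The share of hyper-DMRs over the member windows was 49.1% of 106, 75.8% of 95, 64.6% of 99 and 24.2% of 66, beside 45.9%, 75.4%, 64.5% and 33.7% of the whole lists.

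**Figure D5:**
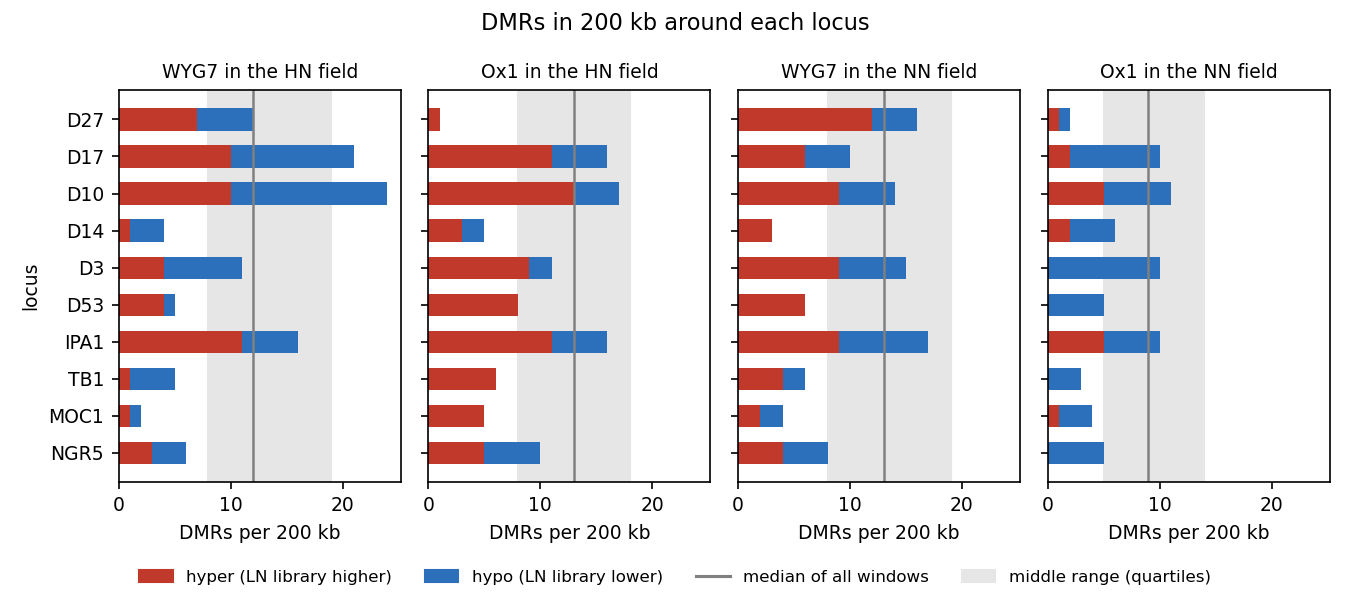
Each panel is 1 comparison of an LN with an HN library, each bar 1 locus, and the bar length is the number of DMRs in 200 kb around it, with hyper-DMRs in red and hypo-DMRs in blue. The grey line is the median of 1860 windows along the genome and the grey band runs from the lower to the upper quartile. The bars of D10, D17 and IPA1 reach or pass the line in most panels, and D27 is long in the panels of WYG7 and short in those of Ox1.

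The 10 locus numbers on either side of each member, 200 in all, were listed at about the rate of the genome. In WYG7 in the HN field 31 of them, or 15.5%, were listed, in Ox1 in the HN field 24, or 12%, in WYG7 in the NN field 29, or 14.5%, and in Ox1 in the NN field 27, or 13.5%. The neighbours of D10 were listed most often, 8, 6, 6 and 7 of 20. Those of TB1, D53, MOC1 and D27 were listed least over the 4 comparisons together, with 2, 1, 0 and 2 for TB1, 3, 1, 0 and 1 for D53, 1, 1, 2 and 2 for MOC1 and 2, 0, 4 and 0 for D27.

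Other genes of the same pathways were looked up in the same lists. None of 24 further loci was listed in any comparison, that is 0 with a hyper-DMR and 0 with a hypo-DMR in each. They were 8 loci of strigolactone synthesis and response, which include the MAX1 homologues that oxidise carlactone and the karrikin receptor homologue D14L, 5 of axillary meristem formation such as LAX1 and MOC3, 6 of the SPL family of IPA1 and 5 of gibberellin and nitrogen response such as the DELLA protein SLR1. Of these loci and the 10 members, D10 and IPA1 alone were therefore listed. The gaps of the 24 loci covered 1134 kb with 51 DMRs, and 6 of them held none. Of all locus numbers 29.3% were listed in at least 1 comparison, and the count of 0 among the 24 loci lies below that share. The reason was not tested, and nothing particular to the 24 loci is read from it. Their identifiers were taken from general knowledge, 8 of the 24 names were found in a RefSeq gene table, on the chromosome of their locus number, and a wrong identifier would also be counted as not listed. The lists give no coverage to tell a locus without a difference from one without reads.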

How the data were processed

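After read filtering, the authors used Bismark 0.9.0 (version from the submitters' processing notes) with IRGSP-1.0 as reference and called DMRs with SMART, setting each LN library against its HN library. Genes with a DMR in the body or within 1 kb upstream were listed as DMGs. The deposited lists give positions in bp and directions, and no counts, levels, coverage or contexts, so depth and precision are unknown. Hyper was read as higher in the LN library. Identifiers are MSU loci, and the annotation version is not given in the sources used here. A RefSeq gene table of another assembly named 5 of the 10 members and 8 of the 24 further loci, all on the same chromosome.

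The members and lists were chosen with earlier results of these data known. All 10 members are named. The other loci named are D53-LIKE, further genes given as examples of each list, and listed neighbours. An overlap of 52 bp, the smallest of listed genes, was required to assign a DMR. Overlaps, gaps, windows and neighbours were computed with Python 3.11.15, numpy 2.4.6 and pandas 2.3.3, tested on simulated lists, and drawn with matplotlib 3.10.9. The alternatives were longer or merged DMRs, other overlaps, wider intervals and another background, the last chosen after seeing the data. No test was made.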

Additional observations from a re-analysis of the deposited data

Results flagged for a closer look

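At IPA1 in WYG7, 242 bp lay in DMRs of opposite direction in the 2 fields, hypo in the HN field and hyper in the NN field. It was picked out because the LN and HN libraries differed in opposite directions in the 2 fields. The difference was not tested, since each condition has 1 library.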

How the results depend on the processing

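Extending the intervals of D10 and IPA1 by 2 kb on both sides raised the DMRs at the members from 2 to 4 for WYG7 in the HN field, from 0 to 2 at 1 locus for Ox1 in the HN field, and from 1 to 3 at 2 loci in place of 1 for Ox1 in the NN field. Counting any overlap from 1 bp gave 1 DMR at 1 locus for Ox1 in the HN field, the hypo-DMR at the edge of D10. The share of listed genes was 16.4%, 16.1%, 16.7% and 11.9% over locus numbers ending in 0, in place of 56.0%, 54.9%, 57.0% and 40.9%, by construction of the base. With the 2 kb extension the hyper share at the members also went from 0.00% to 50.0% for WYG7 in the HN field and from 100% to 66.7% for Ox1 in the NN field, shares of 4 DMRs or fewer. For WYG7 in the NN field it went from 75% to 66.7% with DMRs of at least 200 bp or with DMRs at most 100 bp apart merged. An overlap of at least 100 bp changed no count or share at the members. These alternatives reached D10 and IPA1 only, as intervals of the other 8 loci were not used here. A background over all annotated genes and the sequences at the DMRs were not run, for want of a genome and annotation of this build. No paired analysis was possible because each condition has 1 library and no test was made. The coverage behind each DMR is unknown, so a locus that was not listed may lack reads or lack a difference of the size SMART requires. It may also be missing from the annotation used.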
